A study of Oryzias latipes with 24 samples.

Results

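The Pou, Pax and Cut genes of medaka (Oryzias latipes) were followed through embryogenesis by RNA-seq of whole embryos. The genes were chosen by family: every gene of the transcription factor catalogue whose family label was Pou, PAX or CUT was taken, which gave 18 Pou, 13 Pax and 11 Cut genes. These 42 genes were part of 1646 catalogued transcription factors and of 26549 genes in the expression table. The data were 22 libraries, 2 at each of stages 6 (cleavage), 11 (blastula), 15 (mid-gastrula), 19, 25, 29, 32, 36, 38, 40 and 41, the last a larval stage. Embryos of the Hd-rR inbred strain were used for 20 libraries, and replicate 2 of stages 40 and 41 was labelled d-rR / Qurt, so strain and replicate cannot be told apart at those stages. The labels give no treatment and no mutation for any of these groups. Each library was made from many pooled embryos, so a p-value here measures the spread between pools, and in a whole embryo fewer cells of a type and less RNA per cell cannot be told apart.

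All 3 families encode transcription factors with a homeodomain-type or paired-type DNA-binding part. Pou proteins join a POU-specific domain to a homeodomain: Pou5 factors act with Nanog and SoxB1 factors in pluripotent cells and, in zebrafish, in switching on the embryo's own genome, whereas Pou3, Pou4 and Pou6 factors are known mainly from neural progenitors and neurons. Pax proteins carry a paired domain and are grouped as Pax1 and Pax9 (sclerotome and pharyngeal pouches), Pax2, Pax5 and Pax8 (midbrain-hindbrain boundary, ear and kidney), Pax3 and Pax7 (dorsal neural tube, neural crest and muscle progenitors) and Pax6 (eye, brain and pancreas). Cut proteins carry cut repeats beside a homeodomain: Onecut factors serve liver, pancreas and neurons, Cux factors serve neurons among other cells, and Satb factors organise chromatin.

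Levels are given in TPM (transcripts scaled to their length and to the library's total), and a gene is called detected at a stage when both libraries reached 1 TPM. Of the 42 genes, 40 were detected at 1 or more stages, and 35 were so at a stricter 5 TPM. The exceptions at 1 TPM were IGDB20402 (PAX), whose highest stage mean was 0.323 TPM, and IGDB05911 (Pou), whose highest was 0.804 TPM. Between 8 and 11 of the 42 were detected at stages 6, 11 and 15, then 23 at stage 19, 32 at stage 25 and 36 to 38 from stage 29 to stage 40, before 28 at stage 41. Over all genes the share detected grew less, from 46.1% at stage 6 to 70.3% at stage 40, and only cux1a and satb1 of the 42 were detected at every stage, against 10138 of all 26549 genes. The highest stage mean fell at stages 29 to 36 for 30 of the 40 detected members (75%), against 20.6% of all detected genes. That window held 15 of 17 detected Pou genes, 9 of 12 Pax genes and 6 of 11 Cut genes.

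**Figure D1:**
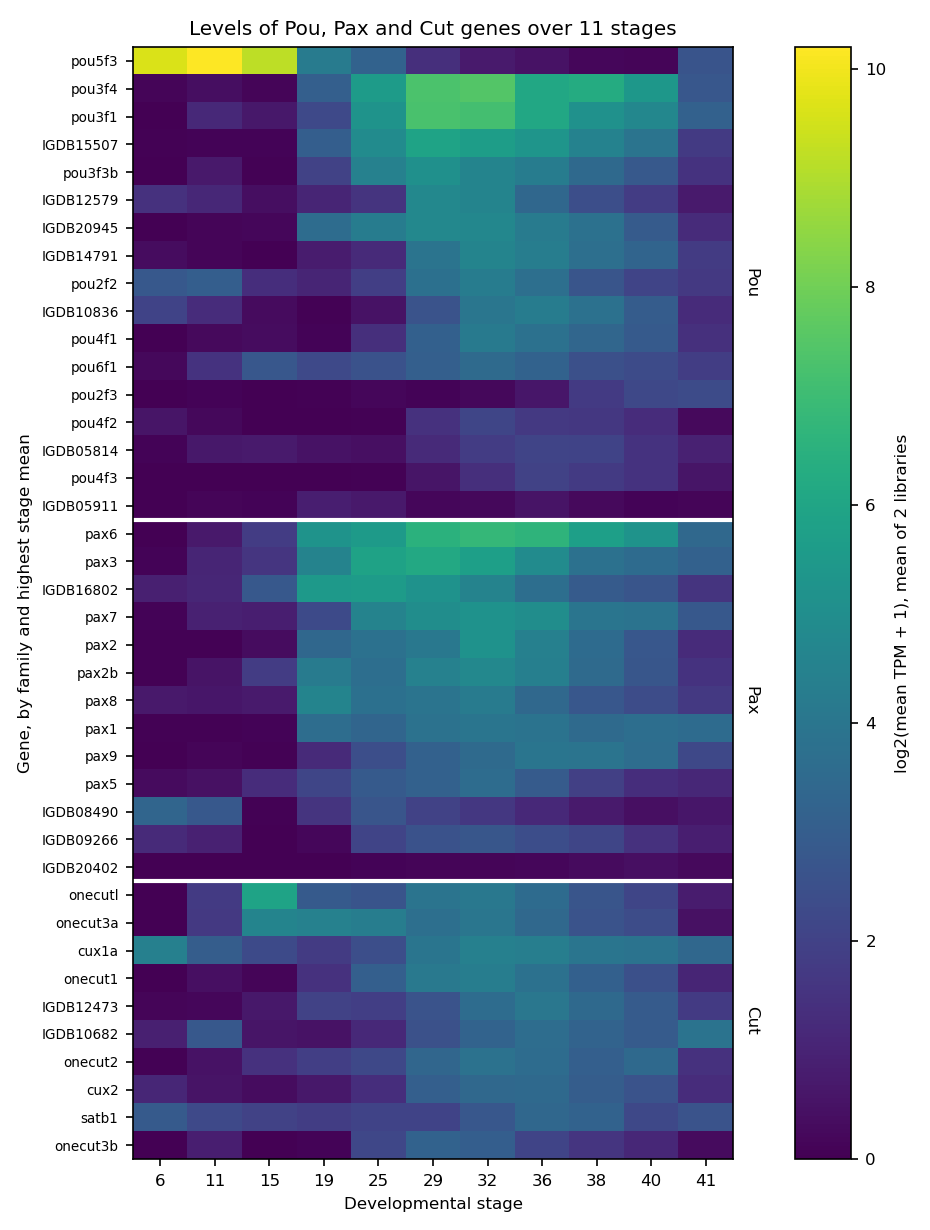
Heat map of log2(mean TPM + 1) for 40 of the 42 genes (rows, by family and highest stage mean) at the 11 stages (columns), each cell the mean of 2 libraries. Most rows are dark to stage 15 and brightest from stage 29 to stage 36, while pou5f3 is bright only at stages 6 to 15 and its mean reached 1174 TPM at stage 11.

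Differences between stages were tested with limma on log2(TPM + 1), over all 21179 genes with at least 1 TPM in 2 libraries, with Benjamini-Hochberg adjustment. In the F test over the 11 stages, all 40 members that were tested passed adjusted p under 0.05 (17 Pou, 12 Pax and 11 Cut genes), but so did 92.7% of all genes tested, so this count is close to the background. The steps between adjacent stages separated the families more. A gene is said to have risen or fallen at a step when the adjusted p was under 0.05 and the log2 change at least 1 in size, and 33 of the 42 members did so at 1 or more of the 10 steps, against 65.2% of all genes tested. The remaining 9 comprised 5 Pou, 2 Pax and 2 Cut genes, among them the 2 that were not tested. Libraries of adjacent stages that do not overlap were common over all genes tested. Their share ran from 30.13% (stage 38 to stage 40) to 67.35% (stage 11 to stage 15).

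From stage 6 to stage 11, 3 members rose (2 Pou, 1 Cut), against 7.65% of all genes, and no member fell, against 4.24% (11 members had an unadjusted p under 0.05). The 3 that rose were onecutl, pou3f1 and pou6f1. These calls were the least stable of the steps with more than 1 call: 0 members were called without stage 6 replicate 1, without stage 6 replicate 2 or without stage 11 replicate 1, and 6 without stage 11 replicate 2. With quantile normalization 5 rose and 1 fell.

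From stage 11 to stage 15, 6 members rose and 4 fell, against 15.1% and 20.1% of all genes, which for the 40 tested members were shares of 15% and 10%, the first close to the background and the second under it. The risers were onecutl, onecut3a, IGDB16802, pax2b, pax6 and pou6f1, and those that fell included pou5f3, IGDB08490 and IGDB10682. The balance of directions depended on the scaling, with 4 risen and 6 fallen after quantile normalization, and 6 members in all were called without stage 15 replicate 2.

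From stage 15 to stage 19, the step from gastrula to early somites, 17 members rose and 2 fell, against 9.85% and 8.02% of all genes. Pax genes made up most of it: 10 of 13 rose and none fell, and the median change over all 13 was 2.41 on the log2 scale, against 0.01 over all genes tested. Among the other families 5 Pou genes and 2 Cut genes rose, while pou5f3 and onecutl fell. Leaving out any single library gave 14 to 19 members called.

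From stage 19 to stage 25, 12 members rose (5 Pou, 5 Pax, 2 Cut), against 7.18% of all genes, and no member fell, against 1.79% (15 members had an unadjusted p under 0.05). The count of 12 called members was 7 without stage 19 replicate 1 and 7 without stage 25 replicate 2. After quantile normalization 7 rose and 1 fell, and after median-of-ratios scaling 11 rose and 2 fell. Tissue markers moved at this step too. Summed neuron markers were 11.9 to 15.2 TPM at stage 19 and 89.5 to 105 TPM at stage 25, with 4 of 6 tested models risen, and summed lens markers were 4.05 to 4.94 TPM and then 316 to 339 TPM, with 3 of 3 risen. Their part in the members' rises was not tested.

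From stage 25 to stage 29, 9 members rose and 1 fell, against 7.22% and 1.04% of all genes. The risers were 6 Pou genes (among them pou3f1, pou4f1, IGDB12579, IGDB14791 and IGDB10836) and 3 Cut genes (cux2, onecut1 and onecut3b), the gene that fell was pou5f3, and no Pax gene was called. Without stage 29 replicate 2 the count was 6 members, and after quantile normalization 4 rose and 1 fell. Neuron markers moved at the same step: the summed level of the 7 matched models of 6 marker genes was 89.5 to 105 TPM at stage 25 and 452 to 527 TPM at stage 29, and their part in the Pou and Cut rises was not tested.

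The next 4 steps held few calls among the members. From stage 29 to stage 32 no member rose or fell, against 0% and 0.00472% of all genes (limma, 7 members at an unadjusted p under 0.05). From stage 32 to stage 36 none rose or fell either, against 4.12% and 0.269%. Here the unadjusted p was under 0.05 for 7 members and for 3310 of all genes tested. From stage 36 to stage 38 only pou2f3 rose, against 3.08% of all genes, and none fell, against 1.33%, although 38 of the 42 stage means on the log2 scale were lower at stage 38 and the members' median change was -0.56, against -0.18 over all genes. The call of pou2f3 was absent without stage 36 replicate 2 and without stage 38 replicate 1. Leaving out any single library gave 0 to 6 members called at this step. Over the single libraries of these stages left out, the rise of pou2f3 was 0.75 to 1.44 on the log2 scale. The direction also turned with the scaling, since after quantile normalization none rose and 2 fell, and with the replicate block 1 rose and 1 fell. From stage 38 to stage 40 none rose or fell, against 0.302% and 0.0331%. There the unadjusted p was under 0.05 for 5 members and for 1541 of all genes tested.

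From stage 40 to stage 41, 19 members fell and 2 rose, against 9.71% and 5.22% of all genes. The fall reached 8 of 18 Pou, 5 of 13 Pax and 6 of 11 Cut genes, pou5f3 was among the risers, and the median change over all 42 was -1.07, against -0.22 over all genes tested. After quantile normalization 3 rose and 13 fell. The count of 21 depended on single libraries of these stages: it was 8 without stage 41 replicate 2, 13 without stage 40 replicate 1, 15 with either of the other two left out alone, and 7 (6 fallen, 1 risen) without both d-rR / Qurt libraries, where each stage kept a single library. Tissue markers also differed between these stages. The summed neuron markers were 540 to 563 TPM at stage 40 and 210 to 288 TPM at stage 41, with 2 of 6 tested models fallen, and the summed lens markers went from 3902 to 4390 TPM to 1203 to 1602 TPM, with 3 of 3 fallen. Skeletal muscle markers summed to 19204 to 30759 TPM and then to 30376 to 32067 TPM, with 1 of 3 risen. The mean of mylpf went from 1208 to 10145.5 TPM. Those of acta1 (23744 to 21053 TPM) and myog (29.2 to 23.2 TPM) were lower at stage 41. No marker of these 3 lists that was tested was at 0 at either stage. Their part in the members' fall was not tested.

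**Figure D2:**
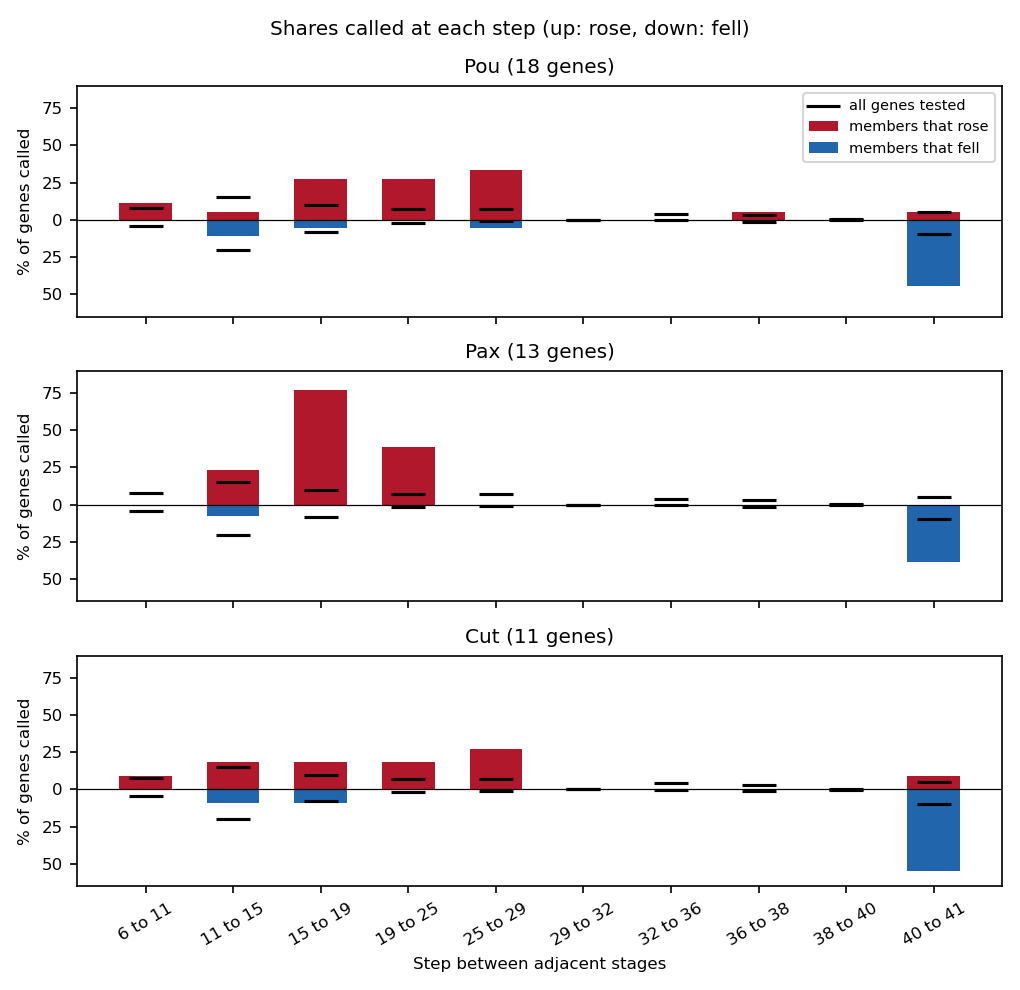
Share of each family's genes that rose (red, upward) or fell (blue, downward) at each of the 10 steps, with black marks for the same share of all genes tested. The bars count all genes of a family, including 1 Pou and 1 Pax gene that were not tested. The tallest bar is the rise of 76.9% of Pax genes from stage 15 to stage 19, and the falls from stage 40 to stage 41 reach 44.4% of Pou, 38.5% of Pax and 54.5% of Cut genes.

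Among the Pou genes, pou5f3 (IGDB13298, chromosome 12, 15942154 to 15945347, plus strand), the fish Pou5 factor, was by far the most abundant. It stood at 786 and 775 TPM in the libraries of stage 6, 1319 and 1029 at stage 11 and 428 and 718 at stage 15. Levels were then 15.4 and 20.8 TPM at stage 19 and 7.64 and 8.95 at stage 25. All 6 early libraries lay above all later ones, and at stages 6, 11 and 15 this gene alone made up 98.0%, 98.5% and 98.3% of the family's summed TPM.

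The fall of pou5f3 from stage 15 to stage 19 was -4.87 ± 0.33 on the log2 scale (SE, limma adjusted p = 8.79e-08), and it also fell from stage 11 to stage 15 (-1.07 ± 0.33, adjusted p = 0.0147) and from stage 25 to stage 29 (-1.88 ± 0.33, adjusted p = 0.00109). By stages 38 and 40 it was at 0.262 and 0.211 TPM in replicate 1 and listed at 0 in replicate 2. At stage 41 it was back at 3.90 and 6.72 TPM, a rise of 2.48 ± 0.33 from stage 40 (limma adjusted p = 4.29e-05). The libraries of the 2 stages did not overlap, as was so for 53.65% of all genes tested.

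Pou3 genes mark neural progenitors in other vertebrates. At stage 19 pou5f3 was still the largest part of the family's sum (30.7%). From stage 25 on the largest part was a Pou3 gene, pou3f4 or pou3f1, with 19.1% to 34.5%. Without pou5f3 the Pou genes, Pou3 and others together, summed to 10.1 TPM at stage 15, 40.9 at stage 19, 167 at stage 25 and 509 at stage 29. The sum was highest at stage 32, at 538 TPM, and lowest after stage 15 at stage 41, at 36.9 TPM. With pou5f3 included, the libraries summed to 613 and 409 TPM at stage 29 and to 684 and 394 at stage 32, so these stages overlapped. The intronless pou3f4 (IGDB12198, chromosome 10, 27187374 to 27188650, plus strand) is known from the neural tube and the inner ear. It was at 0 to 0.365 TPM in the 6 libraries to stage 15, at 7.24 and 7.76 at stage 19 and at 51.4 and 43.2 at stage 25.

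From stage 29 the pou3f4 libraries of a stage parted, with 237 and 79.4 TPM at stage 29, 272 and 77.1 at stage 32, 86.6 and 48.5 at stage 36, 131 and 21.2 at stage 38 and 67.1 and 15.1 at stage 40. Replicate 1 was the higher in each of these 5 pairs, so its later levels are known less well than those of its relatives. It rose from stage 15 to stage 19 (2.94 ± 0.77, adjusted p = 0.0108) and to stage 25 (2.50 ± 0.77, adjusted p = 0.0476), and fell from stage 40 to stage 41 (-2.33 ± 0.77, adjusted p = 0.0427). Another gene model overlaps it on the opposite strand, and whether strand was used in quantification is not given in the sources used here.

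Its relative pou3f1 (IGDB16024, chromosome 16, 23782758 to 23785754, minus strand), a factor of neural plate and Schwann cells, agreed better between libraries. It was at 0.858 and 0.293 TPM at stage 15, 2.62 and 4.77 at stage 19, 31.2 and 41.6 at stage 25, 156 and 148 at stage 29, 162 and 122 at stage 32, and 9.71 and 6.45 at stage 41. Every library of stages 25 to 40 lay above every library of stages 6 to 19. The rise from stage 19 to stage 25, at 3.02 ± 0.33 (adjusted p = 9.23e-06), was the largest of any Pou gene at that step, and pou3f1 was called at 5 steps, the highest number among the 42 genes.

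The unnamed IGDB15507 (chromosome 16, 4811792 to 4815371, minus strand) had the fourth highest Pou level. It stood at 0.122 TPM or less to stage 15, then at 5.29 and 9.15 at stage 19, 27.2 and 32.04 at stage 25, 66.0 and 51.7 at stage 29, 52.9 and 47.7 at stage 32 and 2.90 and 1.73 at stage 41. It rose at the steps to stages 19 and 25 and fell from stage 40 to stage 41 (-2.19 ± 0.33, adjusted p = 0.000163). The same 3 calls were made for pou3f3b, whose highest stage mean was 34.2 ± 2.8 TPM (SD, n = 2) at stage 29. IGDB20945 was detected from stage 19 and IGDB14791 from stage 25, with highest means of 25.8 and 23.1 TPM, and IGDB05814, matched with Pou3f3 in the study's motif table, had its highest stage mean at 3.22 TPM.

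**Figure D3:**
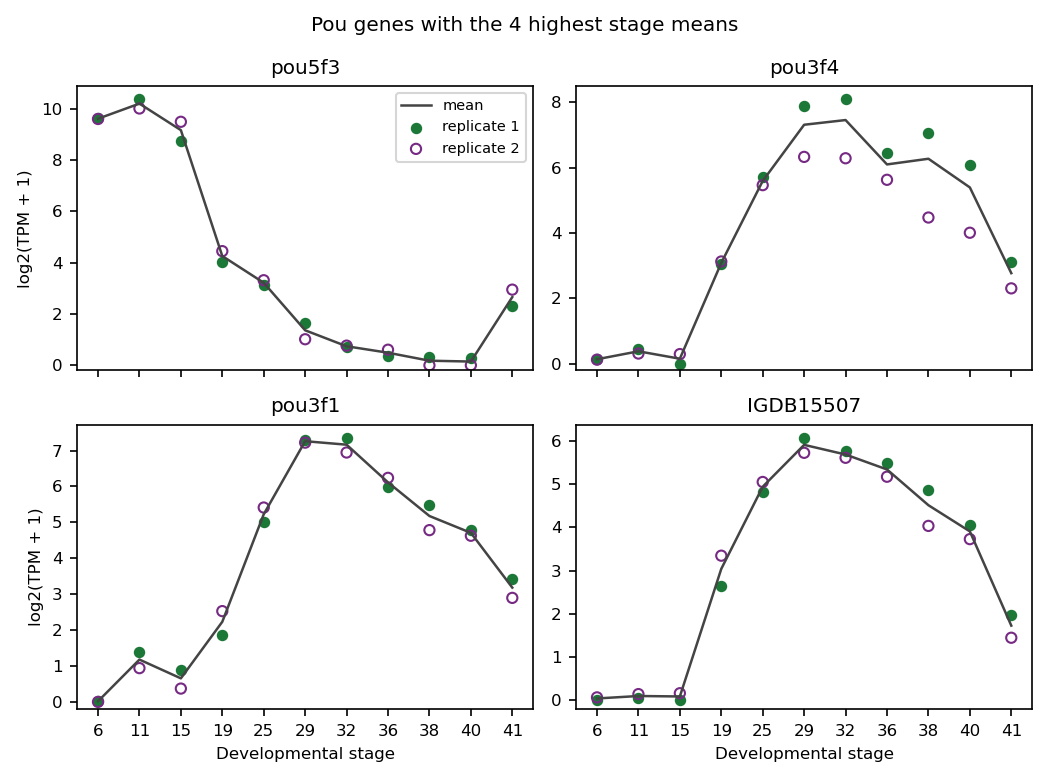
log2(TPM + 1) of the 4 Pou genes with the highest stage means at the 11 stages, with replicate 1 as filled and replicate 2 as open circles and a line through the log2(mean TPM + 1). The points of pou5f3 drop between stages 15 and 19 and return at stage 41, while the other panels climb from stage 19 to stages 29 and 32, and the circles of pou3f4 lie apart from stage 29 to stage 40.

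The Pou2 genes relate to mammalian Oct factors of lymphocytes, neurons and epithelia. The largest Pou rise from stage 25 to stage 29 belonged to IGDB12579, matched with Pou2f2 in the motif table, which went from 2.23 and 1.61 TPM to 37.3 and 15.2 (3.10 ± 0.58, adjusted p = 0.00196). Both later libraries were above both earlier ones. pou2f2 itself was already present early, at 9.52 and 2.59 TPM at stage 6 and 10.7 and 3.69 at stage 11, and was highest at stage 32 (28.4 and 9.06). Replicate 1 of pou2f2 was the higher at all 11 stages.

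By contrast pou2f3, known from epidermis and from chemosensory cells in mouse, was a late gene. It was at 0.179 TPM or less in every library to stage 32, then at 0.702 and 0.336 at stage 36, 3.08 and 1.53 at stage 38, 3.77 and 3.39 at stage 40 and 5.73 and 2.39 at stage 41. Its rise from stage 36 to stage 38 (1.09 ± 0.27, limma adjusted p = 0.0263) was the only call among the 42 genes between stages 29 and 40. That call was not made without stage 36 replicate 2 or without stage 38 replicate 1. Nor was it made with a pseudocount of 0.1 or quantile normalization. Under a filter of 5 TPM in 2 libraries pou2f3 was removed and so not tested. In all, 3 members, pou2f3 and IGDB10682 among them, had their highest mean at stage 41.

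The Pou4 genes, the Brn3 factors of sensory neurons, were first detected at later stages, and steps were called only for pou4f1. pou4f1 was detected from stage 25 and rose at 2 steps, from 0.101 and 0.0599 TPM at stage 19 to 1.69 and 1.44 at stage 25 (1.25 ± 0.31, adjusted p = 0.0149) and to 6.30 and 9.07 at stage 29 (1.74 ± 0.31, adjusted p = 0.00142). It fell from stage 40 to stage 41 (-1.51 ± 0.31, adjusted p = 0.00273). pou4f2, a retinal ganglion cell factor, and pou4f3, a hair cell factor, were detected at 2 and 4 stages, the first at stage 32 for both, and no step was called for either. The libraries of stage 36 disagreed on pou4f2, at 0.00763 and 4.51 TPM.

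pou6f1, a Pou6 factor, was at 0.152 and 0.149 TPM at stage 6, 2.98 and 0.714 at stage 11 and 6.12 and 5.37 at stage 15, rising at both steps (1.18 ± 0.36, adjusted p = 0.0368, and 1.37 ± 0.36, adjusted p = 0.0052), of which the first was lost without either stage 6 library, without stage 11 replicate 1, with no filter on low values or with quantile normalization. IGDB10836, on the unplaced contig 000982F, had an early level (4.08 and 2.18 TPM at stage 6), a low at stage 19 (0 and 0.0995) and a later maximum (24.8 and 11.7 at stage 36).

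Summed over the family, Pax levels were 16.5 ± 2.9 TPM at stage 15 and 176 ± 40 TPM at stage 19 (SD, n = 2), 10.7 times higher, and they were highest at stage 32 (344 ± 7). The sum was 48.1 ± 5.6 TPM at stage 41. The 10 Pax genes that rose from stage 15 to stage 19 were pax1, pax2, pax2b, pax3, pax6, pax7, pax8, pax9, IGDB16802 and IGDB08490, with changes between 1.13 and 3.89 on the log2 scale. Of the other 3, pax5 and IGDB09266 were not called and IGDB20402 was not tested.

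pax6 (IGDB21569, chromosome 3, 23341228 to 23359138, plus strand), the eye and brain factor, had the highest level of the family. It was listed at 0 in both stage 6 libraries, and stood at 0.633 and 0.569 TPM at stage 11, 2.15 and 2.95 at stage 15, 37.0 and 37.5 at stage 19, 90.2 and 90.1 at stage 29 and 106 and 111 at stage 32. Each of these stages lay clear of the one before it. The rise to stage 19 was 3.44 ± 0.30 (adjusted p = 6.99e-07). Levels were then 71.3 and 34.1 TPM at stage 38, 39.8 and 34.5 at stage 40 and 11.1 and 8.74 at stage 41, and the fall at the last step (-1.81 ± 0.30, adjusted p = 0.000397) was the largest of any Pax gene there.

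In the Pax3 and Pax7 group, pax3 (IGDB13885, chromosome 13, 18517828 to 18540354, minus strand) stood at 1.77 and 2.21 TPM at stage 15, 14.5 and 31.1 at stage 19, 46.3 and 68.1 at stage 25 and 74.7 and 66.7 at stage 29, rising at the steps to stages 19 (2.90 ± 0.35, adjusted p = 1.51e-05) and 25 (1.36 ± 0.35, adjusted p = 0.0165). IGDB16802 (chromosome 17, 23532849 to 23549017, plus strand), which the study's motif table matches with PAX3, was earlier. It was at 6.61 and 5.54 TPM at stage 15, 34.6 and 52.4 at stage 19, 39.0 and 56.1 at stage 25, 40.8 and 31.5 at stage 29 and 10.8 and 12.8 at stage 36. It had already risen from stage 11 to stage 15 (1.75 ± 0.39, adjusted p = 0.00163), where pax3 had 1.10 and 1.01 TPM at stage 11 and was not called.

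The 2 genes changed places between these stages, although the IGDB16802 model overlaps another model on its own strand and may share reads with it. IGDB16802 was above pax3 in both libraries at 3 stages, pax3 was above IGDB16802 in both at 6, and their ranges overlapped at 2. At stage 15 the means were 6.08 ± 0.76 for IGDB16802 against 1.99 ± 0.31 TPM for pax3 (SD, n = 2), and at stage 36 they were 11.8 ± 1.4 against 29.5 ± 2.0. Over the 11 stage means on the log2 scale the pair had r = 0.88 (Spearman rho 0.90), a description only, as the points share libraries and follow each other in time.

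pax7 (IGDB22779, chromosome 5, 8880992 to 8924110, plus strand), a factor of muscle satellite cells and neural crest, came later than pax3. It stood at 0.641 and 0.945 TPM at stage 15, 2.44 and 5.26 at stage 19, 15.9 and 29.4 at stage 25, 23.8 and 37.3 at stage 29 and 31.1 and 40.8 at stage 32. The rise from stage 19 to stage 25 (2.29 ± 0.43, adjusted p = 0.0015) was the largest of the Pax genes at that step. IGDB09266, matched with Pax7 in the motif table, was 1.86 and 0.816 TPM at stage 6 and then 0.139 TPM or less at stages 15 and 19, rose at the same step to 3.10 and 3.35 TPM (1.91 ± 0.25, adjusted p = 6.42e-05), and was below pax7 in both libraries at 9 stages.

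**Figure D4:**
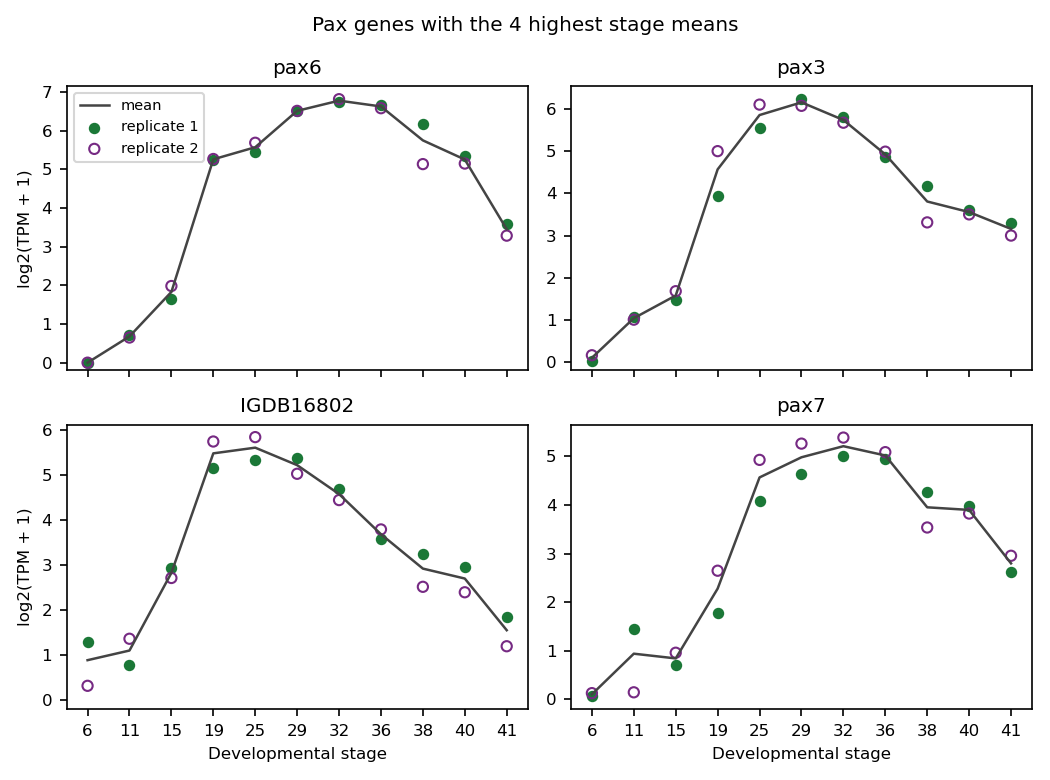
log2(TPM + 1) of the 4 Pax genes with the highest stage means at the 11 stages, with replicate 1 as filled and replicate 2 as open circles and a line through the log2(mean TPM + 1). All 4 climb from stage 15 to stage 25, IGDB16802 ahead of pax3 at stage 15 and below it from stage 29, and pax6 stays above 90 TPM at stages 29, 32 and 36.

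Of the Pax2, Pax5 and Pax8 group, pax8, an early marker of ear placode and kidney, made the largest rise of any Pax gene from stage 15 to stage 19. It went from 0.446 and 0.842 TPM to 23.5 and 22.9 (3.89 ± 0.31, adjusted p = 3.54e-07), which was also its highest stage, and stood at 12.2 and 13.0 at stage 25. It was the 1 Pax gene with its maximum at stage 19. pax2 went from 0.153 and 0.402 TPM to 7.43 and 11.6 at the same step (3.02 ± 0.38, adjusted p = 2.52e-05) and reached 44.5 and 26.3 at stage 32. pax2b was ahead of pax2 at the start, having risen from stage 11 to stage 15 (1.26 ± 0.34, adjusted p = 0.00611). It was at 1.65 and 3.44 TPM at stage 15 and at 13.3 and 22.3 at stage 19, above pax2 in both libraries at 4 stages and overlapping it at 7. pax5 was called at no step, with 1.01 and 5.74 TPM at stage 19 and 8.41 and 14.0 at stage 32.

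The sclerotome genes pax1 and pax9 were at 0.171 TPM or less in all 6 libraries to stage 15. pax1 rose to 12.3 and 10.5 TPM at stage 19 (3.51 ± 0.29, adjusted p = 3.9e-07) and then kept a narrow range, with stage means between 9.10 and 14.7 TPM from there to stage 41. At stage 41 it was at 72.7% of its highest mean and stood at 12.8 and 8.60 TPM, the highest Pax mean there, although its libraries overlapped those of pax6. pax9 rose at the steps to stages 19 and 25, was highest at stage 36 (18.2 and 10.7 TPM) and fell from stage 40 to stage 41 (-1.45 ± 0.29, adjusted p = 0.0021).

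The unnamed IGDB08490, listed both as a Pax and as a Homeobox gene, was the Pax gene with the highest level at stage 6. It was at 11.7 and 6.61 TPM there, 4.30 and 7.68 at stage 11 and 0.0942 and 0.0165 at stage 15, a fall of -2.69 ± 0.35 (adjusted p = 9.46e-06). It then rose to 0.901 and 2.91 TPM at stage 19 (1.37 ± 0.35, adjusted p = 0.0089) and to 4.47 and 6.54 at stage 25 (1.24 ± 0.35, adjusted p = 0.0296). The libraries of stage 15 lay below all others of this gene.

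Cut levels were more even. The family summed to 29.5 ± 13.3 TPM at stage 6, 23.6 ± 14.4 at stage 11, 93.0 ± 24.2 at stage 15 and 41.2 ± 8.6 at stage 19, with a second maximum of 128 ± 30 at stage 32 (SD, n = 2). At stage 15, 63.9% of the sum came from 1 gene.

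That gene was onecutl (IGDB16093, chromosome 16, 26988647 to 26999838, minus strand), an Onecut-like factor. It was at 0 and 0.0164 TPM at stage 6, 3.998 and 0.611 at stage 11, 44.8 and 74.0 at stage 15 and 5.35 and 7.42 at stage 19. Both stage 15 libraries were above all 20 others. The rise from stage 11 to stage 15 was 4.37 ± 0.43 (adjusted p = 5.48e-07) and the fall to stage 19 was -3.00 ± 0.43 (adjusted p = 8.93e-05). The earlier rise from stage 6 to stage 11 (1.49 ± 0.43, adjusted p = 0.0292) was 0.68 without stage 11 replicate 1, and it was called neither there, nor without either library of stage 6, nor with no filter. It then stood at 18.0 and 13.8 TPM at stage 32 and 0.950 and 0.453 at stage 41, where it fell (-1.36 ± 0.43, adjusted p = 0.0365).

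onecut3a (IGDB07696, chromosome 4, 7862678 to 7878384, plus strand) shared the start but not the fall. It was listed at 0 in both stage 6 libraries, and was at 3.08 and 1.47 TPM at stage 11, 21.9 and 25.2 at stage 15, 19.04 and 23.1 at stage 19 and 22.8 and 15.1 at stage 25. The rise from stage 11 to stage 15 was 2.95 ± 0.57 (adjusted p = 0.000475), and the libraries of stages 15, 19 and 25 overlapped one another. At stage 32 they parted, at 22.6 and 7.81 TPM, and at stage 41 they were at 0.556 and 0.196 (fall from stage 40 of -1.88 ± 0.57, adjusted p = 0.0286).

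The other Onecut genes had their highest means later. onecut1 (IGDB21667, chromosome 3, 27196776 to 27206533, minus strand), the hepatocyte nuclear factor 6 gene of liver, pancreas and neurons, rose at 3 successive steps, from 0.108 and 0.0700 TPM at stage 15 to 1.25 and 2.17 at stage 19, 6.81 and 8.30 at stage 25 and 15.3 and 17.2 at stage 29. These 4 stages did not overlap. onecut3b was at 0.101 TPM or less at stages 15 and 19 and then at 4.07 and 2.98 at stage 25, the largest Cut rise of that step (2.08 ± 0.25, adjusted p = 2.64e-05), and at 9.04 and 7.22 at stage 29. onecut2 was detected from stage 15 (1.85 and 1.62 TPM), was highest at stage 32 (19.5 and 7.55 TPM) and had the largest Cut fall from stage 40 to stage 41, from 12.5 and 8.13 to 2.22 and 1.29 TPM (-2.03 ± 0.49, adjusted p = 0.00793). That call was lost without stage 40 replicate 1 (-1.75), without stage 41 replicate 2 (-1.79) and without both d-rR / Qurt libraries (-2.07). Over the 11 stage means, onecutl and onecut3a had r = 0.87 with each other and 0.35 to 0.52 with onecut1, onecut2 and onecut3b, which had 0.76 to 0.93 among themselves.

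**Figure D5:**
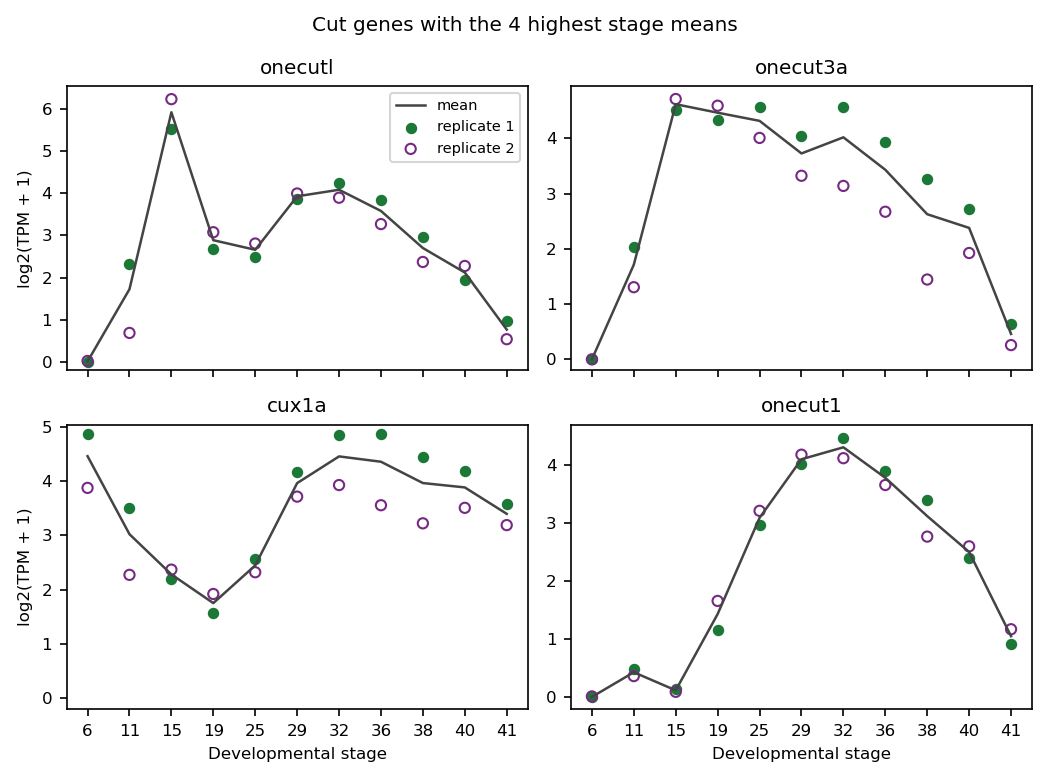
log2(TPM + 1) of the 4 Cut genes with the highest stage means at the 11 stages, with replicate 1 as filled and replicate 2 as open circles and a line through the log2(mean TPM + 1). onecutl has its tallest peak at stage 15 (mean 59.4 TPM), onecut3a a plateau from stage 15 to stage 25, onecut1 a climb to stage 32, and cux1a a dip between stages 6 and 32 with means of 21.0 TPM at both ends.

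cux1a (IGDB02114, chromosome 13, 13828124 to 13836051, minus strand), a Cux factor of broad expression, was present from the start, at 28.4 and 13.7 TPM at stage 6, 10.4 and 3.84 at stage 11, 1.95 and 2.79 at stage 19, 27.7 and 14.2 at stage 32 and 11.0 and 8.13 at stage 41. Its model covers only part of the RefSeq cux1 gene and overlaps another model on the same strand, so its reads may have been shared out between models. The models of cux2, IGDB16802 and pax5 also overlap another model on their own strand. No step was called for cux1a. cux2, a neuronal Cux factor, was lower than cux1a in both libraries at all 11 stages, rose from 1.46 and 1.52 TPM at stage 25 to 5.50 and 9.34 at stage 29 (1.72 ± 0.28, adjusted p = 0.00067) and fell from stage 40 to stage 41 (-1.29 ± 0.28, adjusted p = 0.00395).

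satb1, a chromatin organiser, had stage means of 2.65 to 9.73 TPM and no called step, and its libraries parted at stage 38 (12.4 and 4.20 TPM). IGDB10682, on the unplaced contig 000710F, was highest at stage 41 (10.8 and 16.4 TPM, against 7.46 and 5.85 at stage 40) without a call at that step, and its libraries of stage 11 differed, at 10.7 and 1.27 TPM. IGDB12473 was highest at stage 36, at 18.0 and 12.6 TPM.

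Of the 40 detected members, 21 (52.5%) had a stage 41 mean under 10% of their highest stage mean, against 12.5% of all detected genes (11 of 17 Pou, 6 of 12 Pax and 4 of 11 Cut genes), and the median share was 9.75%, against 30.5% over all detected genes. At stage 6, 8 members were detected, among them cux1a, satb1, pou5f3, pou2f2, IGDB12579, IGDB10836 and IGDB08490.

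The libraries of a stage did not always agree on these genes. Spearman's rho between the libraries of a stage was 0.952 to 0.984 over all genes, lowest at stage 38. At stage 38, 39 of the 42 members were higher in replicate 1, 12 of them by more than 1 in log2(TPM + 1). The members' median difference was -0.70 on the same scale (replicate 2 less replicate 1), against -0.11 over all genes tested. At stage 36, 29 members were higher in replicate 1 and 9 of them by more than 1 in log2(TPM + 1). These counts of members were not taken over all genes. The median difference there was -0.28 for the members, against 0.05 over all genes tested. At stage 19, 33 members were higher in replicate 2, but their median of 0.27 was close to the 0.29 of all genes tested. Summed neuron markers at stage 38 were 862 TPM in replicate 1 and 727 TPM in replicate 2. Photoreceptor markers summed to 4905 and 3703 TPM, including a mean of 27.5 TPM from rhob, which is no photoreceptor gene. The part of these markers in the difference was not tested.

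Same-root genes other than those above were alike to different degrees over the 11 stage means, which are not independent points. pou3f1 had r = 0.98 with pou3f4 and 0.97 with pou3f3b, and pax2 had 0.96 with pax2b. IGDB05814 was less like the other Pou3 genes, with r = 0.73 with pou3f1, 0.72 with pou3f4 and 0.61 with pou3f3b. pou4f1 had r = 0.93 with pou4f2 and 0.89 with pou4f3, and pou2f2 had 0.86 with IGDB12579. At the other end, pou2f3 had r = -0.21 with pou2f2 and -0.15 with IGDB12579.

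Genes known to work with these factors were taken from lists. Of 8 Pou5 partners listed, 4 were matched by symbol and tested. The mean level of nanog was 633 TPM at stage 6, 1125 TPM at stage 11 and only 7.89 TPM by stage 15. Its fall from stage 11 to stage 15 (-6.96, limma adjusted p = 4.48e-10) came 1 step before the largest fall of pou5f3. It also rose from stage 40 to stage 41 (3.04, adjusted p = 6.53e-06), to a mean of 8.85 TPM. sox2 rose from stage 6 to stage 11 (6.17, adjusted p = 2.62e-08), and prdm14 rose at that step and fell from stage 15 to stage 19 (-4.01, adjusted p = 4.92e-06).

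In the network of Pax, SIX-class, Eya and Dach proteins, which works with Pax6 in the eye and with other Pax genes in ear and muscle, 9 models were matched and 8 tested. Of these 6 rose and none fell from stage 15 to stage 19, among them eya4 (2.62, adjusted p = 3.6e-05) and eya1 (1.24, adjusted p = 0.0393), and their median change was 1.70, where 9.85% of all genes rose. Of 7 muscle and neural crest genes linked with Pax3 and Pax7, 3 rose at that step and none fell, myf5 among them (3.63, adjusted p = 6.45e-07), myod1 rose at the next one (3.86, adjusted p = 1.43e-07), and tfap2a rose from stage 6 to stage 11 (6.58, adjusted p = 1.15e-07). Of 7 kidney and ear models linked with Pax2 and Pax8, 4 rose and none fell from stage 11 to stage 15, where 15.1% of all genes rose, among them cdh17 (5.04, adjusted p = 3.84e-08), gata3 and lhx1. From stage 15 to stage 19, where pax2 and pax8 rose, 1 of the 7 rose and 1 fell, with a median change of -0.13. The gene that fell was lhx1, from a mean of 15.8 to 2.36 TPM (-2.32, adjusted p = 0.000152).

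Of 6 models matched to sensory neuron genes linked with Pou4, 3 rose from stage 15 to stage 19, and none fell. From stage 19 to stage 25, 3 rose and none fell, where 7.18% of all genes rose. Among the 6 is gfi1b, a separate gene known from blood cells and matched only through the root gfi1. Its mean went from 1.10 TPM at stage 19 to 6.36 TPM at stage 25. From stage 25 to stage 29 isl1 rose and gfi1 fell (-1.38, adjusted p = 0.0138). The most abundant, isl1, rose at all 3 steps and was among 3 that fell from stage 40 to stage 41 (-1.82, adjusted p = 0.00136), where gfi1b rose (1.28, adjusted p = 0.0157). Of 6 liver and pancreas genes linked with Onecut1, none rose or fell from stage 15 to stage 19, where onecut1 first rose. From stage 25 to stage 29, where onecut1 also rose, 2 rose and none fell. From stage 19 to stage 25, 3 rose and none fell. Among them were neurod1 (3.61, limma adjusted p = 1.5e-06) and prox1 (1.62, adjusted p = 0.00427), while foxa2 had risen at the 2 steps from stage 6 to stage 15. Of 6 tested neuron marker models, 4 rose from stage 19 to stage 25 too, and the tissue in which the listed genes rose was not tested. None of the 5 pancreas markers was matched by symbol. Kidney markers summed to 1.26 to 3.02 TPM at stage 6 and 96.7 to 233 TPM at stage 41. The stage 41 sum was mostly cdh17 (mean 136 TPM, already 33.7 TPM at stage 15), while nphs1 was at 1.06 TPM. Summed photoreceptor markers were 19.3 to 32.7 TPM at stage 29 and 3917 to 6048 TPM at stage 40. These photoreceptor sums include rhob, a Ras-like GTPase gene matched through the root rho. Its means were 24.4 TPM at stage 29 and 31.0 TPM at stage 40. At stage 29 the marker means were 0 TPM for rho, 0.345 for arr3 and 1.23 for rpe65.

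The spans and exon numbers of the gene models differed between the families. The choice of genes did not use them, though the family labels were assigned to proteins read from these same models. Pou genes were compact, with a median span of 3302 bp and a median of 3 exons (the largest number in any transcript), against 7186 bp and 7 exons over all genes. Of the 18 Pou genes, pou3f1, pou3f4 and IGDB20945 had a single exon, as 10.5% of all genes had. Pax genes had a median span of 26894 bp and 10 exons, and Cut genes 15707 bp and 9 exons. The 18 Pou genes lay on 12 chromosomes and 1 unplaced contig, the 13 Pax genes on 12 chromosomes and the 11 Cut genes on 9 chromosomes and 1 unplaced contig. Models came from the long-read transcripts for 23 members and from Ensembl for 19. The model of IGDB20402 overlaps the unrelated gene snd1 and also unnamed RefSeq genes. That of IGDB05911 overlaps htr1f and pou1f1, the pituitary Pou gene. IGDB20402 and IGDB05911 are the genes that were never detected.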

How the data were processed

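Whole-embryo RNA was sequenced as stranded libraries, and the authors mapped reads with HISAT2 2.1.0 and deposited gene TPM from StringTie 1.3.3b on their own gene models (long-read transcripts supplemented by Ensembl models). Read depth is unknown from TPM, so no counting interval is given. Replicate 1 columns sum to between 980148 and 998174 TPM, and replicate 2 columns to 1000000 TPM. Whether the replicate sets were quantified separately is not stated. The deposited transcription factor catalogue gave the families, and the deposited gene models the positions, on the Hd-rR reference. Symbols came from RefSeq genes of ASM223467v1 by span overlap (Jaccard at least 0.5), which named 22 members, 7 more take the study's names, and 13 keep their IDs.

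limma 3.58.1 (R 4.3.3) was fitted to log2(TPM + 1), so fold changes of low genes are understated, for 21179 genes with at least 1 TPM in 2 libraries, with one mean per stage, an intensity trend and Benjamini-Hochberg adjustment per step. The code was tested on simulated data. Values of both libraries, at chosen stages, are given for the 4 genes with the highest stage mean per family. The same holds for the largest called change per family and step. Non-members come from fixed lists, at most the 3 most abundant. Members and lists were chosen with earlier results of these data known. Alternatives were another pseudocount, filters, scalings, variance model, replicate block, minimum change, and libraries left out. A deposited gonad table was not used here, since its values did not match the time course by ID (Spearman's rho 0.179 with stage 6, with 639 of its IDs outside the gene models), nor was the lncRNA list. Of the members, 2 are counted in the totals but not reported here by name, nor is 1 listed gene.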

Additional observations from a re-analysis of the deposited data

How the results depend on the processing

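With 2 libraries a stage, single steps rest on few values. The count of 40 members changing over the stages was 39 to 40 over all single libraries left out and stayed within 1.5 times under every other alternative, and 35 of 42 against 40 were detected at 5 TPM. For members called from stage 6 to stage 11 (3), the count was 11 with a pseudocount of 0.1, 1 with no filter, 6 with quantile normalization, 0 with a minimum log2 change of 2, and 0 to 6 with single libraries left out. From stage 11 to stage 15 (10) it was 19 with a pseudocount of 0.1, 3 at a minimum of 2 and 6 to 11 with libraries left out, and from stage 15 to stage 19 (19) it was 12 and 14 to 19. From stage 19 to stage 25 (12) it was 5 at a minimum of 2 and 7 to 12 with libraries left out, and from stage 25 to stage 29 (10) it was 5 with quantile normalization, 4 at a minimum of 2 and 6 to 12. From stage 29 to stage 32 (0) the range was 0 to 1, and from stage 32 to stage 36 (0) it was 0 to 1, with 1 after quantile normalization and 1 with no minimum change. From stage 36 to stage 38 (1) it was 0 with a pseudocount of 0.1, 0 with a filter of 5 TPM, 2 with quantile normalization, 0 at a minimum of 2, and 0 to 6, and from stage 38 to stage 40 (0) it was 1 with quantile normalization and otherwise 0. From stage 40 to stage 41 (21) it was 7 without the other strain, 4 at a minimum of 2, and 8 to 21. The cause of these differences was not tested, save for 2 that hold by construction. A higher minimum change keeps fewer genes, and the filter of 5 TPM removes pou2f3 before the test.

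Replicate numbers were checked as a pairing. The difference between replicates correlated between stages with a median r of 0.256 over 55 stage pairs (0.0478 to 0.669, with 53 above 0.1). Part of the replicate difference was thus shared across stages, and the main tests do not model it. The labels name no shared batch. From stage 6 to stage 11, 3214 of all genes tested were called with the replicate block, against 2517 without it. With the replicate block, 6 members were called from stage 6 to stage 11 and 2 from stage 36 to stage 38, and the counts at the other steps stayed within 1.5 times. Of 203 refits of the 17 largest family changes, 182 kept the call, 21 lost it and 0 reversed. Quantile normalization shifted the median of all genes by -0.219 to 0.142 at the steps, and median-of-ratios scaling by -0.164 to 0.266.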
